A study of Mus musculus with 48 samples.

Results

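The 8 genes described here belong to the oligodendrocyte lineage: *Olig1*, *Olig2*, *Sox10*, *Nkx2-2*, *Pdgfra*, *Cspg4*, *Cnp* and *Mbp*. They were found by their mouse symbols among the 39017 genes counted, and each of the 8 matched 1 gene ID. The data are 48 bulk RNA-seq libraries, made by SMART-seq2 from whole transcripts, of neural stem cells (NSCs; neural progenitor cells in the labels) cultured from the dentate gyrus of mice 7 to 8 weeks old. Every culture, controls included, carried floxed *Setd1a* alleles (Setd1afl/fl), Hopx-CreERT2 and an H2B-GFP reporter, and was held in BMP4 and FGF2, which bring these cells into quiescence. Lentivirus carrying GFP alone gave the WT libraries and lentivirus carrying Cre-GFP gave the KO libraries. *Setd1a* encodes a histone H3K4 methyltransferase, and the study asked what its loss does to quiescent NSCs over time and whether ORY-1001 (ORY), an inhibitor of the H3K4 demethylase LSD1, alters the outcome. There were 4 WT and 4 KO libraries at each of days 4, 5, 6 and 9. At day 7 there were 4 libraries of each genotype with DMSO and 4 of each with ORY. Viral Cre, loss of *Setd1a* and any Cre-driven change of the reporter came together in the KO cultures and cannot be told apart, and not all cells of a culture were infected. The day 4 counts, those of days 5, 6 and 9, and those of day 7 are separate tables, and no difference was tested between them.

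Oligodendrocytes make the myelin of the central nervous system and arise from dividing precursors. The basic helix-loop-helix factors *Olig1* and *Olig2*, the homeodomain factor *Nkx2-2* and the HMG-box factor *Sox10* specify the precursors and drive their maturation. The precursors are recognised by the PDGF receptor *Pdgfra* and the NG2 proteoglycan encoded by *Cspg4*, and mature cells by myelin genes such as *Cnp* and *Mbp*. Stem cells of the adult dentate gyrus mostly give neurons and astrocytes, and BMP signalling is known to hold back oligodendrocyte formation through Id proteins, which sequester the E protein partners of the OLIG factors.

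*Olig1* (ENSMUSG00000046160) and *Olig2* (ENSMUSG00000039830) are paralogs on the plus strand of chromosome 16. The annotation of GRCm38 places *Olig2* at 91225457 to 91228677 and *Olig1* at 91269772 to 91271933, with 41094 bases between them. Their coding sequences are 969 and 780 bases long. The best ungapped match between these sequences was a stretch of 82 bases in the part that encodes the basic helix-loop-helix domain, from chr16:91226713-91226794 in *Olig2* and chr16:91270148-91270229 in *Olig1*. It is shown because reads from paralogs can be mistaken for each other, and the results for the pair differ. In both lines capitals mark the bases that differ:
Olig1: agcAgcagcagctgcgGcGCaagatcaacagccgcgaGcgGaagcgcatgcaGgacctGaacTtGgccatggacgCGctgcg
Olig2: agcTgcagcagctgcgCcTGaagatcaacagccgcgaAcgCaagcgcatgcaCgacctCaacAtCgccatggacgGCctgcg
Of the 82 bases 70 were identical (85.4%), and 8 of the 12 mismatches fell on the wobble base of a codon. The longest identical run was 17 bases, in this stretch and over the whole coding sequences. Only uniquely aligned reads were counted. A separate overlap concerns the 3′ end of *Olig1*, where 157 bases (7.26% of its exons) are shared with Gm15966 on the opposite strand, which had 2 counts in all 48 libraries.

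Libraries held 3137352 to 20588555 counts. *Setd1a* itself was counted too thinly to check the genotype, at 0 to 65 reads per library, and it did not pass the test between KO and WT on any day. It was not lower in the libraries labelled KO except for the means at day 7 with DMSO (2.5 CPM against 3.33 in WT) and day 9 (1.80 against 1.88), and it was higher without overlap at day 6 (3.88 against 2.16 CPM) and at day 7 with ORY (3.13 against 2.25 CPM). The Rosa26 transcript Gt(ROSA)26Sor was lower in KO at each time and treatment (log2 fold changes from -0.54 to -0.26), and passed the test each time. Within each of the 6 groups of days 5, 6 and 9, libraries 1 and 3 were closest to each other and libraries 2 and 4 likewise, which held in 1 of 4 groups at day 7 and 0 of 2 at day 4. The study describes the RNA-seq libraries of a group as independent cultures, which the labels do not state, and p-values measure the spread between these libraries. All 14 astroglial and radial glial markers looked for were detected at a mean of at least 1 CPM (counts per 1000000 counts of the library), as were 4 of 10 neuronal, 2 of 10 microglial, 4 of 11 pericyte, 3 of 8 endothelial, 2 of 8 fibroblast and 4 of 6 ependymal markers. The microglial gene *C1qb* had no count in any library.

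The members were expressed very unequally. Per kilobase of exon, *Olig1* had the highest mean in each of the 12 groups, from 7.96 CPM per kb in WT with DMSO to 57.6 CPM per kb in KO at day 5. *Olig2* ranged over the groups from 3.85 to 12.3 CPM per kb and *Cnp* from 2.94 to 6.57 CPM per kb. Group means of *Pdgfra* (0.182 to 0.648), *Cspg4* (0.122 to 0.425) and *Nkx2-2* (0.0694 to 0.617) lay below 1 CPM per kb. *Sox10* (ENSMUSG00000033006) had no read in any of the 48 libraries, which allows up to 0.144 CPM in the deepest and 0.978 CPM in the shallowest library (3 counts; counting error only). *Mbp* (ENSMUSG00000041607) had 62 reads in all, between 0 and 8 per library. Thus 5 members passed the filter on low counts in every table, *Nkx2-2* passed it at day 7 only, and *Sox10* and *Mbp* never did. In bulk libraries fewer cells expressing a gene and less RNA per cell cannot be told apart.

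*Olig1*, which in mice is needed for remyelination and oligodendrocyte maturation, was higher in KO than WT at day 5 and, with DMSO, at day 7. At day 5 it stood at 73.1, 55.7, 79.1 and 68.4 CPM in the WT libraries and at 134, 115, 135 and 114 CPM in the KO libraries. The lowest KO library lay well above the highest WT library. The group means were 69.1 ± 9.93 and 124 ± 11.6 CPM (SD, n = 4 each), a fitted log2 fold change of 0.84 ± 0.13 (SE; 1.79-fold; adjusted p = 2.76e-05, edgeR quasi-likelihood test with Benjamini-Hochberg adjustment over all genes tested). Of the 5 members tested at day 5, 2 were called (*Olig1* and *Cspg4*, both higher in KO), where 15% of all genes tested were called. At this day the summed level of the 8 fibroblast markers, of which *Igf2* and *Fn1* were detected, was 96.4 to 116 CPM in WT and 149 to 161 CPM in KO, and that of the 9 cell cycle genes 3056 to 3177 and 3188 to 3385 CPM. The fibroblast sum was nearly all *Fn1* (means of 109 CPM in WT and 152 CPM in KO). The neuronal sum (564 to 618 CPM in WT, 498 to 517 CPM in KO) and the endothelial sum (7.55 to 9.63 and 5.30 to 7.43 CPM) were lower in KO without overlap. Their part in the result was not tested.

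At the other untreated days the *Olig1* libraries of KO and WT overlapped. At day 4 the levels were 57.4, 59.8, 51.4 and 50.4 CPM in WT and 72.2, 67.3, 65.0 and 42.9 CPM in KO. In KO 3 libraries were above the WT range and the fourth was below it. At day 6 WT had 24.9, 21.9, 22.5 and 17.2 CPM and KO 28.0, 18, 28.0 and 17.1 CPM, and at day 9 WT had 56.3, 49.6, 62.7 and 49.1 CPM and KO 72.3, 48.3, 68.1 and 48.8 CPM. In both WT and KO at days 5, 6 and 9 libraries 1 and 3 were the high pair and libraries 2 and 4 the low pair, the same pairing as over all genes. The log2 fold changes were 0.17 ± 0.13 at day 4 (95% interval -0.08 to 0.42), 0.09 ± 0.16 at day 6 (-0.23 to 0.40) and 0.14 ± 0.13 at day 9 (-0.12 to 0.41). No member was called at day 4, 6 or 9 by edgeR, DESeq2 or limma-voom, where 1.59%, 13.1% and 11.8% of all genes were called by edgeR. At an unadjusted p under 0.05 the members were 0 at day 4, 1 at day 6 (*Pdgfra*) and 1 at day 9 (*Olig2*).

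The *Olig1* difference at day 5 was tested against those at the later days as a genotype by time interaction. It was smaller at day 6 by 0.75 ± 0.21 on the log2 scale (adjusted p = 0.0129) and smaller at day 9 by 0.70 ± 0.19 (adjusted p = 0.0145). *Olig1* was the only member of 5 called in either test, in which 12.6% (day 6) and 9.21% (day 9) of all genes were called. *Olig1* has an exonic GC content of 61.1%, above that of 97.7% of genes tested, and over all genes the day 5 log2 fold changes rose with GC content (Spearman's rho 0.363 across genes, which are not independent). With a correction for GC content and gene length the day 5 difference was 0.56 ± 0.10 (adjusted p = 0.000106), while the interactions came to -0.40 (adjusted p = 0.102) and -0.35 (adjusted p = 0.137) and were no longer called, but were with the replicate block added (-0.41, adjusted p = 0.0365, and -0.36, adjusted p = 0.0433). With libraries 1 and 3 and libraries 2 and 4 summed, the day 5 call held (adjusted p = 0.0397), while the interactions kept their size (-0.71 and -0.68) but not their calls (adjusted p = 0.264 and 0.319).

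At day 7 with DMSO the KO libraries again held more *Olig1* RNA, and with ORY the genotypes did not separate. With DMSO *Olig1* was at 13.6, 18.2, 15.8 and 21.3 CPM in WT and at 35.3, 41.3, 39.6 and 40.4 CPM in KO. The ranges did not overlap. The fitted log2 fold change was 1.19 ± 0.12 (2.28-fold; adjusted p = 9.51e-09). With ORY the levels were 22.4, 21.8, 21.5 and 23 CPM in WT and 23.4, 25.3, 20.9 and 25.1 CPM in KO, with 1 KO library below the WT range and 3 above it (log2 fold change 0.10 ± 0.12, 95% interval -0.14 to 0.33, adjusted p = 0.765). With DMSO 3 of 6 members tested were called (*Olig1* higher, *Nkx2-2* and *Cnp* lower in KO) against 36.0% of all genes. *Nkx2-2* entered this count only with the help of the WT libraries with DMSO, where it was highest. With ORY 0 of 6 were called by edgeR, DESeq2 or limma-voom, and 0 at an unadjusted p under 0.05, against 1.15% of all genes.

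ORY moved *Olig1* in opposite directions in the 2 genotypes. In KO it was 1.64-fold lower with ORY than with DMSO (log2 fold change -0.72 ± 0.11, adjusted p = 1.53e-05), and *Olig1* was the only member of 6 called, against 38.7% of all genes. In WT it was 1.29-fold higher with ORY (0.37 ± 0.12, adjusted p = 0.0397), again the only call of 6, against 15.1% of all genes. The WT call was lost without a filter on low counts (adjusted p = 0.0762), with only the groups compared in the fit (adjusted p = 0.0804) and without each of 7 of the 8 WT libraries in turn. The difference between the ORY effects was -1.09 ± 0.17 (adjusted p = 3.67e-05) and kept its call in each of the 27 other settings run, and *Olig1* was the only 1 of 6 members called in that interaction, against 17.9% of all genes. KO with ORY was still higher than WT with DMSO in the fit (0.47 ± 0.12, adjusted p = 0.00854), although the libraries overlapped (20.9 to 25.3 against 13.6 to 21.3 CPM). In that comparison 2 of 6 members were called (*Olig1* higher, *Cnp* lower), against 15.7% of all genes. These day 7 comparisons share groups with each other. The summed level of the 14 astroglial and radial glial markers ran 12031 to 12293 CPM in WT and 15713 to 15999 CPM in KO with DMSO, and 13738 to 13886 and 13717 to 13909 CPM with ORY. Genes of this list did not all move with the sum. With DMSO the means of *Gfap* (520 CPM in WT, 99.5 CPM in KO) and *Slc1a3* (2086 and 1807 CPM) were lower in KO. Those of *Sox2* (193 and 217 CPM) and *Nes* (19.7 and 25.6 CPM) were higher. Both are small beside the sum (means of 12148 CPM in WT and 15845 CPM in KO), and the genes that made up most of its rise are not given here. With ORY *Gfap* had means of 196 CPM in WT and 126 CPM in KO. The summed cell cycle genes ran 394 to 436 CPM in WT and 467 to 508 CPM in KO with DMSO, and 632 to 688 and 636 to 697 CPM with ORY. *Mki67* of that list overlapped between the genotypes with DMSO (1.85 to 3.87 CPM in WT, 2.73 to 6.54 CPM in KO). The other genes of the list are not given singly. The part of these shifts in the *Olig1* result was not tested.

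**Figure D1:**
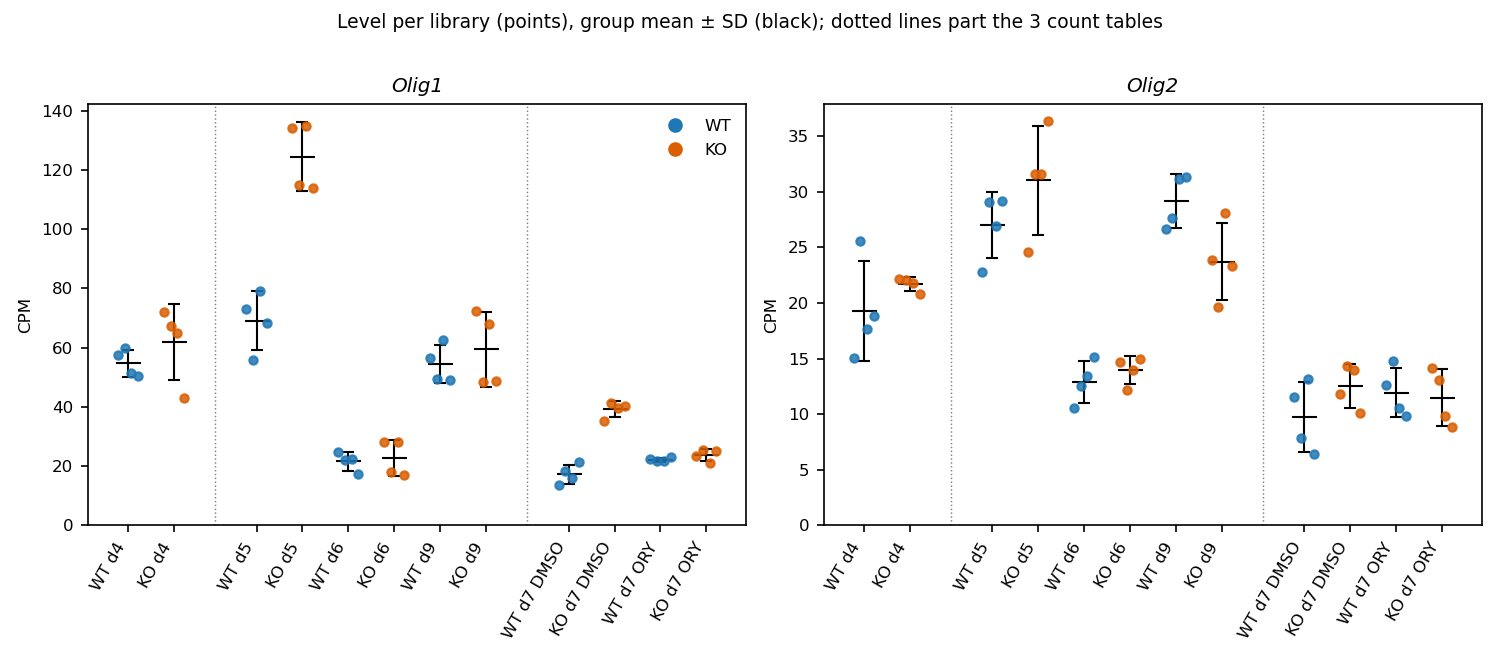
CPM of *Olig1* (left) and *Olig2* (right) on the y axis in each of the 48 libraries (points; WT blue, KO orange), by group on the x axis, with the group mean and SD in black; d is day, and dotted lines part the 3 count tables. *Olig1* in KO stands clear of WT at day 5 (114 to 135 against 55.7 to 79.1 CPM) and at day 7 with DMSO (35.3 to 41.3 against 13.6 to 21.3 CPM), and both genes are low at day 6.

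*Olig2*, the factor required to form oligodendrocyte precursors and also present in neural progenitors, did not pass the main test between KO and WT at any day or treatment. At day 5 it was at 22.8, 29.1, 27.0 and 29.2 CPM in WT and 24.5, 31.6, 31.6 and 36.4 CPM in KO, and with DMSO at day 7 at 11.6, 7.85, 13.2 and 6.38 CPM in WT and 11.8, 14.3, 14 and 10.1 CPM in KO. The groups overlapped in both cases. The log2 fold changes were 0.22 ± 0.13 (95% interval -0.03 to 0.47, adjusted p = 0.264) and 0.37 ± 0.20 (-0.02 to 0.77, adjusted p = 0.155). At day 9 WT had 26.6, 27.7, 31.2 and 31.4 CPM and KO 23.9, 19.6, 28.1 and 23.3 CPM, so 3 of 4 KO libraries lay below the WT range (-0.28 ± 0.13, adjusted p = 0.148). The change of the genotype difference from day 5 to day 9 was -0.50 ± 0.18 (adjusted p = 0.0723). Adjusted p was 0.035 with the replicate number as a block (-0.49), 0.356 with summed libraries (-0.51) and 0.585 with the GC and length correction (-0.21). The day 7 difference with DMSO was called in 2 of 19 other settings, with the GC correction and the block together (0.49, adjusted p = 0.0217) and without WT library 3 (0.56, adjusted p = 0.0441).

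Whether the neighbours responded unequally was examined with the log2 ratio of *Olig1* to *Olig2* within each library (0.5 CPM added to each). At day 5 the mean ratio was 1.33 ± 0.33 in WT and 2.00 ± 0.34 in KO (log2; SD, n = 4 each), a difference of 0.66 whose groups overlapped by 1 library (exact two-sided permutation test, p = 0.0571). At day 9 it was 0.88 ± 0.19 in WT and 1.29 ± 0.22 in KO (difference 0.41, exact p = 0.0571). The permutation treats the 4 libraries of a group as independent. At days 5 and 9 libraries 1 and 3 and libraries 2 and 4 were closest to each other in each group, so these p-values may be too small. With DMSO it was 0.82 ± 0.71 in WT and 1.62 ± 0.23 in KO (difference 0.79, exact p = 0.114), and the WT ratios ran from 0.22 to 1.66. In KO the ratio was 1.62 ± 0.23 with DMSO and 1.03 ± 0.31 with ORY, without overlap (difference -0.58, exact p = 0.0286, the smallest that 4 against 4 allows). None of the 8 comparisons of the ratio passed after adjustment over the 8 (adjusted exact p of 0.152 or more). With 4 against 4 several comparisons would have to reach the smallest p together before any could pass, so these adjusted values do not show whether the pair responded alike.

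**Figure D2:**
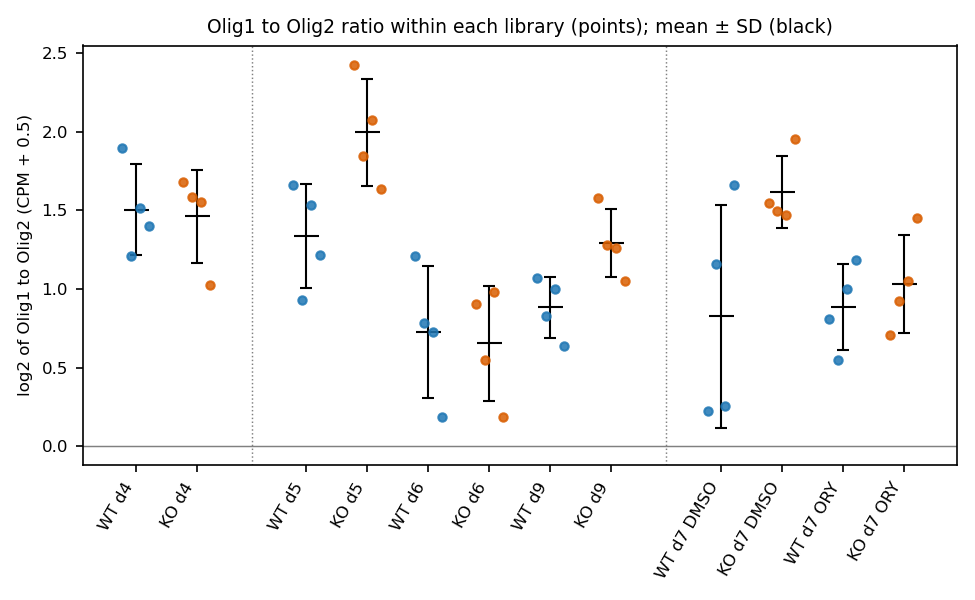
Log2 ratio of *Olig1* to *Olig2* (y axis; CPM + 0.5) in each library (points; WT blue, KO orange) by group (x axis), with mean and SD in black and dotted lines between count tables. Ratios lie above 0 in every library, with means between 0.65 in KO at day 6 and 2.00 in KO at day 5.

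*Nkx2-2*, a homeodomain factor that promotes oligodendrocyte differentiation and that *Olig1* and *Olig2* act beside in the precursors, was near the detection limit, with 0 to 11 reads per library at days 4, 5, 6 and 9. At day 7 with DMSO it had 15, 41, 12 and 7 reads in WT (2.31, 1.98, 1.45 and 1.35 CPM) and 5, 11, 5 and 2 reads in KO (0.545, 1.35, 0.759 and 0.38 CPM). The highest KO library came just under the lowest WT library. The fitted difference was -1.19 ± 0.43 (2.28-fold lower in KO; adjusted p = 0.0339). *Nkx2-2* passed the filter on low counts only with the help of the WT libraries with DMSO, where it was highest. The test is therefore not independent of the filter, and its adjusted p gives no support for a difference. The difference lay between -1.63 and -1.02 in the 18 other settings, and its call was lost without a filter on low counts (adjusted p = 0.0817), with the GC and length correction (adjusted p = 0.0648) and without WT library 1 or 2 or KO library 1, 3 or 4. With ORY WT had 1.68, 1.13, 0.465 and 0.746 CPM and KO 1.51, 0.705, 1.21 and 1.14 CPM, which overlapped. *Sox10*, which activates myelin genes together with *Olig2* partners, gave no read in either genotype.

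*Pdgfra*, the receptor for the PDGF-A that drives precursor division, did not differ between the genotypes by the test. Its levels at day 6 were 6.10, 6.46, 8.33 and 5.10 CPM in WT and 5.11, 2.99, 4.19 and 3.82 CPM in KO. In KO 3 libraries lay below the WT range and the fourth just inside its lower edge. The log2 fold change was -0.70 ± 0.29 (95% interval -1.27 to -0.13, adjusted p = 0.11). At day 7 the libraries ran from 2.32 to 6.81 CPM and the 4 groups overlapped, except that KO with ORY (4.34, 4.93, 4.83 and 4.94 CPM) lay above KO with DMSO (2.72, 4.17, 3.95 and 3.99 CPM; 0.38 ± 0.28, adjusted p = 0.302). *Pdgfra* is also a fibroblast gene, and the fibroblast marker sum at day 6 was 47.8 to 53.4 CPM in WT and 40.3 to 56.5 CPM in KO. That sum was nearly all *Fn1* (means of 51.3 of 51.5 CPM in WT and 48.3 of 49.0 CPM in KO). *Col1a1* of the same list had means of 0 and 0.104 CPM, so the sum does not measure fibroblast content.

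*Cspg4*, the NG2 proteoglycan of precursors and of pericytes, was higher in KO at day 5. It had 1.57, 1.33, 2.62 and 3.44 CPM in WT (6 to 25 reads) and 2.51, 5.04, 6.21 and 6.52 CPM in KO (9 to 83 reads). In KO 3 libraries lay above the WT range and 1 within it. The fitted log2 fold change was 1.17 ± 0.33 (2.25-fold, adjusted p = 0.0131). The call was lost with the GC and length correction (0.91 ± 0.32, adjusted p = 0.0606), with the paired libraries summed (1.18, adjusted p = 0.0969) and without KO library 4 (1.03, adjusted p = 0.0598) or WT library 2 (1.01, adjusted p = 0.0554). The summed level of the 11 pericyte markers was 28.8 to 32.9 CPM in WT and 21.2 to 32.4 CPM in KO at day 5. Most of it was *Rgs5* (means of 23.4 of 30.8 CPM in WT and 21.8 of 27.8 CPM in KO). *Pdgfrb* of the same list had means of 0 and 0.0338 CPM, and 4 of the 11 were detected in at least 1 group. The sum therefore does not measure pericyte content. On the other days and treatments the *Cspg4* fold changes lay between -0.55 and 0.48 on the log2 scale and none was called.

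*Cnp*, which encodes an enzyme of the inner myelin layers, was lower in KO at day 7 with DMSO. WT had 18.8, 22.8, 30.5 and 23.6 CPM and KO 14.8, 14.8, 15 and 20.5 CPM. In KO 3 libraries were below the WT range and library 4 was inside it. The log2 fold change was -0.57 ± 0.15 (1.48-fold lower, adjusted p = 0.00466) and kept its call in each of the 19 other settings run. With ORY WT had 16.8, 19.1, 16.6 and 19.5 CPM and KO 19.1, 13, 19.8 and 15.5 CPM (-0.12 ± 0.16, adjusted p = 0.797). The difference between the ORY effects on *Cnp* was 0.45 ± 0.22 and was not called (adjusted p = 0.167), and the ORY effect in WT (-0.41 ± 0.15, adjusted p = 0.0686) passed with the replicate number as a block (adjusted p = 0.03). *Mbp*, the structural protein that compacts myelin, had 6, 2, 8 and 0 reads in WT and 0, 0, 0 and 0 in KO with DMSO, too few to be tested.

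**Figure D3:**
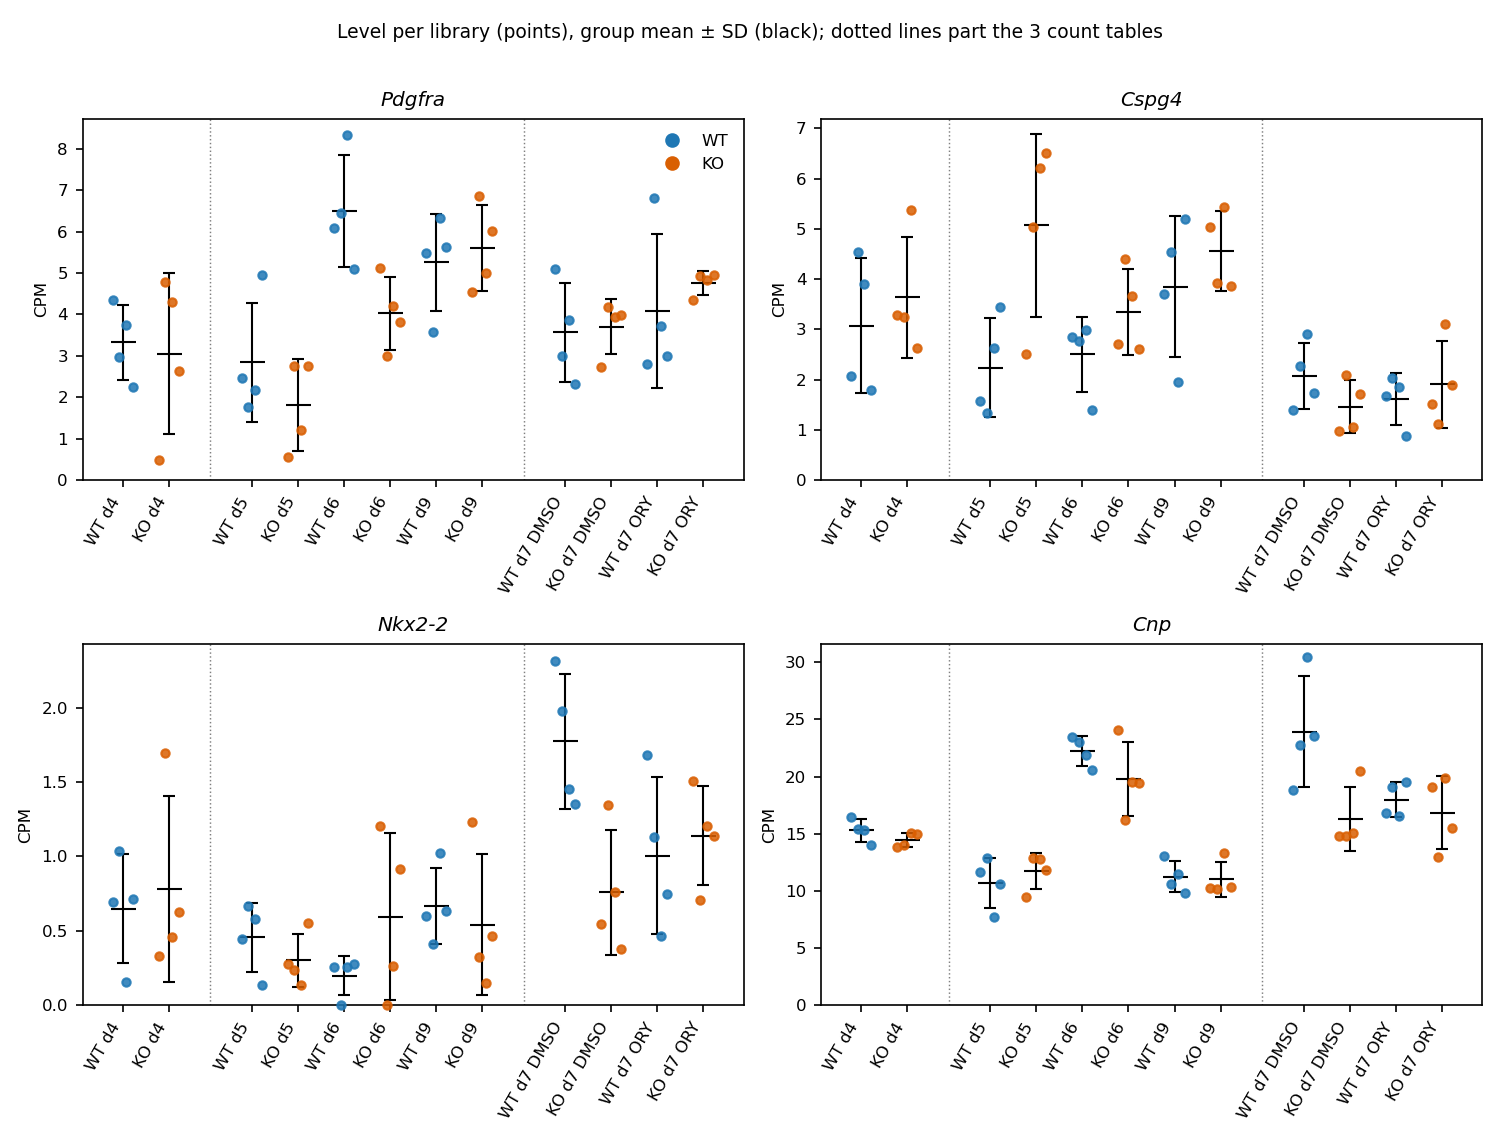
CPM (y axis) of *Pdgfra*, *Cspg4*, *Nkx2-2* and *Cnp* in each library (points; WT blue, KO orange) by group (x axis), with mean and SD in black and dotted lines between count tables. *Cspg4* lies above the WT range in 3 of 4 KO libraries at day 5, *Nkx2-2* stays below 2.5 CPM throughout, and *Cnp* is highest at day 6 among days 5, 6 and 9.

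**Figure D4:**
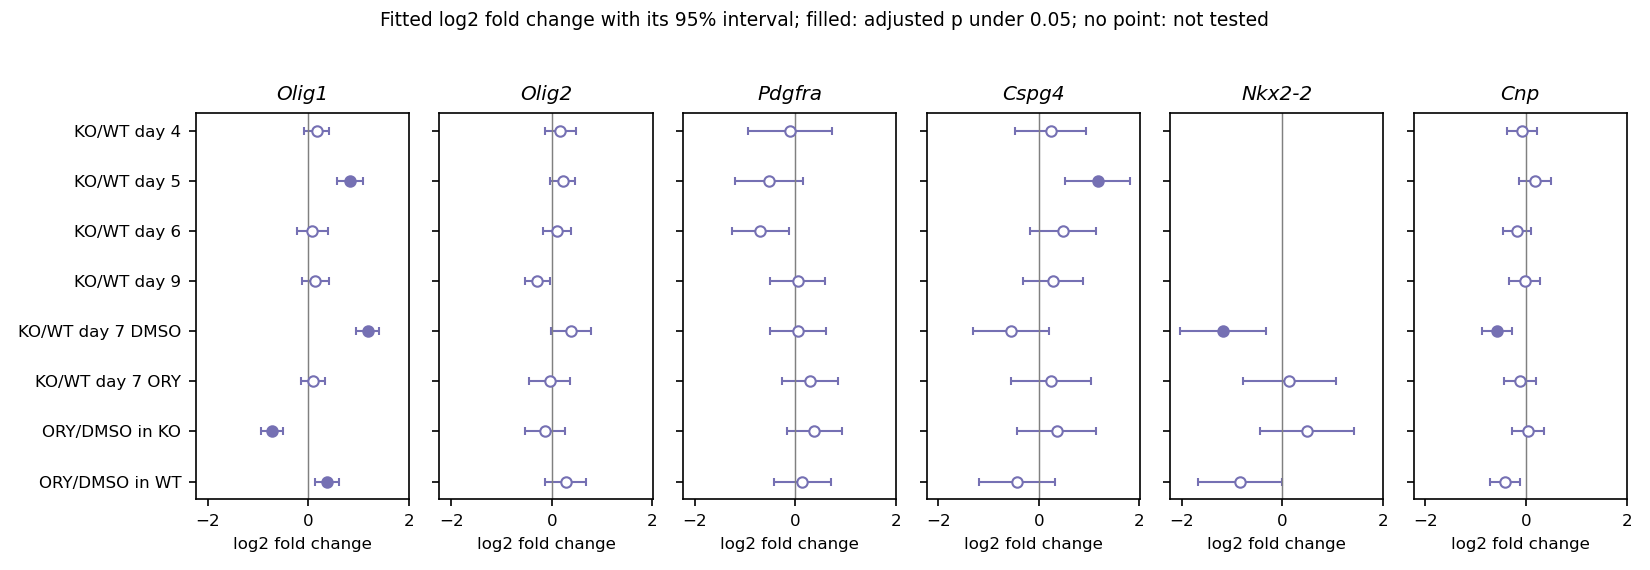
Fitted log2 fold change (x axis) with its 95% interval for the 6 members that could be tested, in the 6 comparisons of KO with WT and the 2 of ORY with DMSO (y axis). Filled points had an adjusted p under 0.05; of the KO to WT differences only *Olig1* at days 5 and 7 (DMSO), *Cspg4* at day 5, and *Nkx2-2* and *Cnp* at day 7 (DMSO) are filled. *Nkx2-2* passed the filter on low counts only with the help of the WT libraries with DMSO, where it was highest.

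Between days 5 and 6, *Olig1* and *Olig2* fell and *Pdgfra* and *Cnp* rose in WT and in KO, 4 of 5 members tested in each, against 44.1% of all genes in WT and 43.0% in KO. *Olig1* fell by 1.69 on the log2 scale in WT (3.23-fold) and by 2.44 in KO (5.44-fold), and *Olig2*, at 10.5 to 15.1 CPM at day 6 in the 8 libraries, fell by 1.06 (2.09-fold) and by 1.18 (2.26-fold). *Cnp* rose 2.10-fold in WT, from 7.72 to 12.9 CPM at day 5 to 20.6 to 23.5 CPM at day 6, and 1.64-fold in KO, where the libraries spanned 9.48 to 12.8 CPM at day 5 and 16.2 to 24 CPM at day 6. The ranges of *Cnp* at the 2 days did not overlap in either genotype. *Pdgfra* rose 2.18-fold in WT (adjusted p = 0.00269) and 1.93-fold in KO (adjusted p = 0.0179), and the KO call was lost with the paired libraries summed and without KO day 5 library 1 or 3. The 9 cell cycle genes looked at, summed, ran 3056 to 3177 CPM in WT and 3188 to 3385 CPM in KO at day 5, and 885 to 945 and 649.9 to 757 CPM at day 6. The astroglial sum (20683 to 21415 and 15209 to 15577 CPM) and the fibroblast sum (96.4 to 116 and 47.8 to 53.4 CPM) were also lower in WT at day 6 than at day 5, and the ependymal sum was higher (4.00 to 6.71 and 14.8 to 16.4 CPM). Within the astroglial list the WT means of *Slc1a3* (5683 and 1935 CPM) and *Nes* (20.9 and 9.04 CPM) fell. Those of *Gfap* (712 and 757 CPM) and *Sox2* (82.1 and 179 CPM) rose. The fibroblast sum was nearly all *Fn1* (means of 109 and 51.3 CPM). Their part in these changes was not tested.

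At day 9 the WT libraries of *Olig1* (49.1 to 62.7 CPM) and *Cnp* (9.86 to 13 CPM) overlapped those of day 5. From day 5 to day 9 only *Pdgfra* was called of 5 members in WT (0.84 ± 0.30, 1.79-fold, adjusted p = 0.0429), against 22.7% of all genes, and this call was lost in 10 of 20 other settings. *Olig1* in WT (-0.35 ± 0.13) had an adjusted p of 0.0578, which was 0.0016 with the replicate number as a block and 0.305 with summed libraries (-0.37), and 11 of 20 other settings called it. In KO 3 of 5 members were called, against 24.4% of all genes. *Olig1* was 2.06-fold lower (adjusted p = 2.18e-07) and *Olig2* 1.31-fold lower (adjusted p = 0.022, lost with the GC and length correction, with summed libraries and without KO library 4 of day 5 or library 2 or 4 of day 9). *Pdgfra* was 2.66-fold higher (adjusted p = 0.00102), at 0.558, 2.76, 1.22 and 2.75 CPM at day 5 and 4.55, 6.86, 4.99 and 6.02 CPM at day 9, without overlap. Any difference between days in how the libraries were made cannot be told apart from the day.

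For members that changed in both genotypes between days 5 and 6 the sequence just before the gene start is given where RefSeq (GRCm38.p6) holds it, cut to the bases before the annotated gene on either annotation. E-boxes, the sites that basic helix-loop-helix factors bind (CANNTG, which reads the same motif on both strands), are in capitals. The windows are chr16:91225300-91225456 for *Olig2*, chr5:75152001-75152250 for *Pdgfra* and chr11:100574689-100574903 for *Cnp*, all on the plus strand:
Olig2: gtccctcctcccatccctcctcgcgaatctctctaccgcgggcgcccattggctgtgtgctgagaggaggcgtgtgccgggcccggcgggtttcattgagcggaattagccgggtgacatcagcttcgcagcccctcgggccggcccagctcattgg
Pdgfra: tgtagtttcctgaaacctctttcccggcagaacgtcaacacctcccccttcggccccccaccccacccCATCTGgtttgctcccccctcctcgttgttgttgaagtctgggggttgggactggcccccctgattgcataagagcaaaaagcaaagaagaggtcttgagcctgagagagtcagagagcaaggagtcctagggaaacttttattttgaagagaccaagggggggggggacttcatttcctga
Cnp: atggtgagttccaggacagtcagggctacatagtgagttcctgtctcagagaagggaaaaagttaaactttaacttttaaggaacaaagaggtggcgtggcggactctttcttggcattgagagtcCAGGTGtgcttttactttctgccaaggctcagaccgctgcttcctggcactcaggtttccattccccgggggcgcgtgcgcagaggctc
The *Olig2* window, 157 bases of a gene that fell, held 0 E-boxes, and the windows of *Pdgfra* (250 bases) and *Cnp* (215 bases), which rose, held 1 each. Windows of those lengths held at least 1 E-box in 50.8%, 66.2% and 61.4% of the 32851 promoters of the table. The *Olig2* window held 14 CG pairs against a median of 3 at its length, *Pdgfra* 4 against 6, and *Cnp* 7 against 5.

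The genes around *Olig1* were looked at in the same fits. Of the 17 genes of the tables within 250 kb of the pair, 7 besides *Olig1* and *Olig2* were tested at day 5, and none was called by edgeR or had an unadjusted p under 0.05 (log2 fold changes -0.69 to 0.25). *Paxbp1* was the 1 of 7 called by edgeR at day 6, higher in KO (0.35 ± 0.09, adjusted p = 0.00927), and at day 9, lower in KO (-0.38 ± 0.09, adjusted p = 0.00492). Of all genes 13.1% and 11.8% were called there. At day 4 and at day 7 with ORY 0 of 6 were called, against 1.59% and 1.15% of all genes. With DMSO at day 7, 2 of 6 were called, a share near the 36.0% of all genes, both lower in KO: the interferon receptor gene *Ifnar1* (-0.43 ± 0.14) and the interleukin receptor gene *Il10rb* (-0.60 ± 0.23). Among 7287 genes, those whose log2 CPM followed *Olig1* most closely over the 48 libraries, each centred within its table, were *Igfbp3* (Pearson's r 0.94), *Manf* (0.94), *Scrn1* (0.92), *Ak1* (0.92) and *Mrps6* (0.92), while *Olig2* ranked 274 (0.74 in all, 0.36 within day 4, 0.86 within days 5, 6 and 9, and 0.24 within day 7). Those closest to *Olig2* were *Npvf* (0.84), *Prkcb* (0.84), *Trim9* (0.83), *Hsp90b1* (0.83) and *Spred1* (0.82). *Cnp* ran against *Olig1* (-0.71) and *Olig2* (-0.70) and with *Mt1* (0.84) and *Idh2* (0.84). *Pdgfra* was followed less closely, by *Ifit2* (0.68), *Irf9* (0.67), *Pccb* (0.65), *Cpq* (0.65) and *Mr1* (0.65). These are descriptions: the libraries share groups, days and base composition.

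Wider lists of the lineage were followed beside the members. Of 20 further precursor genes 14 were tested at day 5, and 3 were called (15% of all genes were), all higher in KO, among them the proteoglycan *Bcan* (0.51 ± 0.17). The list's median was 0.11 beside 0.02 over all genes. With DMSO at day 7, where 36.0% of all genes were called, 4 of 13 were higher (*Cspg5*, 0.84 ± 0.08, and *Ptprz1*, 0.45 ± 0.07) and 3 lower (*Cacng4*, -0.78 ± 0.19, and *Pcdh15*, -0.53 ± 0.10). Of 12 committed-precursor genes 9 were tested at day 7, and against the same 36.0% 5 were higher in KO with DMSO, including *Tcf7l2* (0.57 ± 0.07), a Wnt effector of differentiating oligodendrocytes, and 2 lower, including the deacetylase *Sirt2* (-0.88 ± 0.08), with a list median of 0.45 beside -0.02 over all genes. With ORY in KO (38.7% of all genes called) 1 of these 9 rose and 6 fell, *Tcf7l2* by 0.70 and *Tns3* by 0.52 on the log2 scale, while *Sirt2* rose (0.84 ± 0.08).

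The 30 myelin genes were split between directions. At day 5, 2 of the 17 tested were higher and 2 lower in KO, and with DMSO at day 7, 3 of 14 were higher and 4 lower, beside 15% and 36.0% of all genes. *Plekhb1* (-0.79 ± 0.06) and *Enpp2*, which makes lysophosphatidic acid (-0.97 ± 0.10), were lower with DMSO. At day 6, where 13.1% of all genes were called, the 6 of 17 called were all lower in KO, among them *Aspa* (-0.54 ± 0.10) and *Enpp2* (-0.50 ± 0.11). From day 5 to day 6 in WT 9 of 17 rose and 3 fell (44.1% of all genes were called), with *Enpp2* (1.86 ± 0.12) and *Plekhb1* (0.84 ± 0.07) up.

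Of 20 partners and repressors of the OLIG factors 19 were tested. At day 5, 3 were higher and 3 lower in KO (15% of all genes called), with the E protein *Tcf12* (-0.36 ± 0.06) and *Sox5* (-0.49 ± 0.09) lower and the Notch effector *Hey1* (0.38 ± 0.08) higher. With DMSO at day 7, 8 were higher and 5 lower (36.0% of all genes called). The Id genes were split, with *Id4* (0.78 ± 0.09) and *Id2* (0.40 ± 0.05) higher and *Id3* (-0.72 ± 0.10) lower. *Id1* also lay lower in KO, without overlap (47.9 to 59.7 CPM in WT, 30.4 to 41.9 CPM in KO). The arginine methyltransferase *Prmt5* was lower (-1.01 ± 0.08). *Prmt5* rose with ORY in KO (1.11 ± 0.08) and stayed lower in KO than WT with ORY (-0.45 ± 0.08, adjusted p = 0.00294). Of 22 genes of the PDGF, FGF and hedgehog signals that feed the lineage, 16 were tested at day 5, and the 3 called, a share near that of all genes (15%), were all higher in KO: the *Pdgfra* ligand *Pdgfa* (0.71 ± 0.11, adjusted p = 3.56e-05), *Fgfr1* (0.36 ± 0.07) and *Gas1* (0.30 ± 0.09), with a median of 0.30 beside 0.02 over all genes. With DMSO at day 7, the 6 of 15 called, again near the share of all genes (36.0%), were all higher, among them the FGF feedback inhibitor *Spry2* (1.27 ± 0.09) and the hedgehog effector *Gli3* (0.99 ± 0.15). ORY in KO lowered 8 of the 15 and raised 1 (38.7% of all genes called), with *Spry2* down by 1.18 and *Pdgfa* by 0.75 on the log2 scale.

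**Figure D5:**
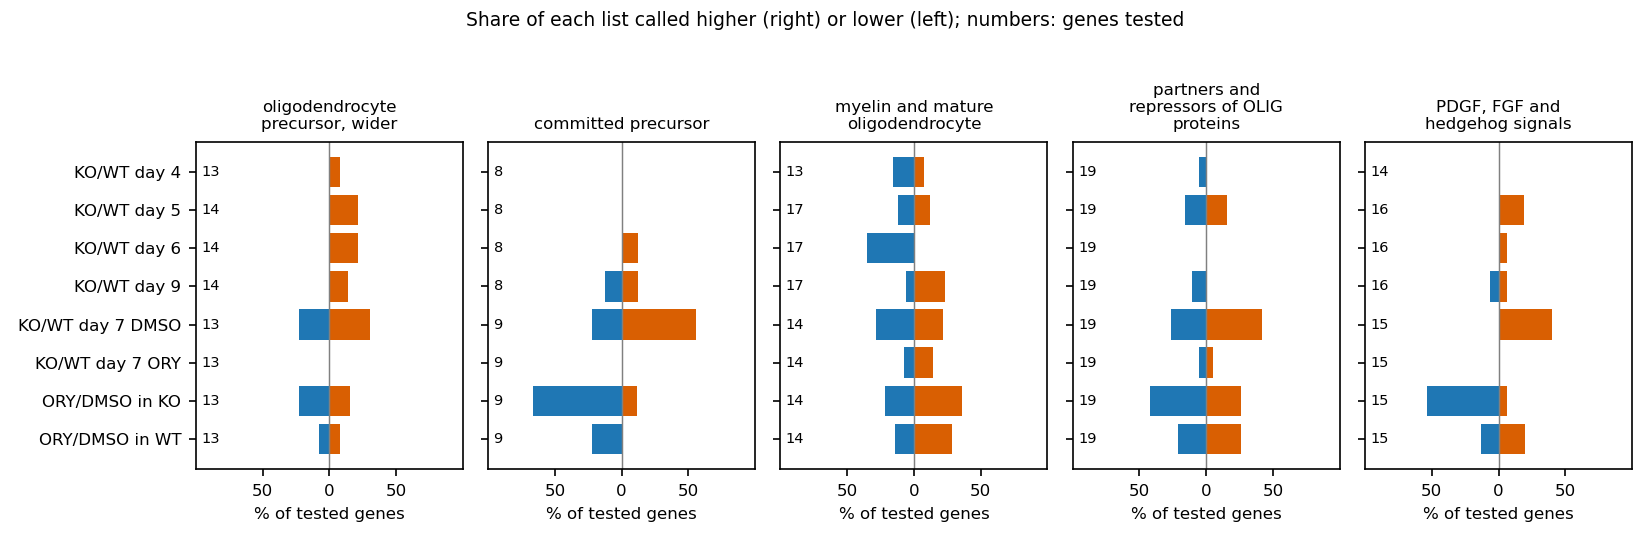
Share of tested genes of 5 lists (panels) called higher (orange, to the right) or lower (blue, to the left), in percent on the x axis, for the 6 comparisons of KO with WT and the 2 of ORY with DMSO (y axis); the number at the left is the genes tested. The PDGF, FGF and hedgehog genes called in KO against WT at days 5, 6 and 7 (DMSO) are all higher in KO.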

How the data were processed

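RNA of 48 libraries was sequenced by SMART-seq2. The submitters' processing notes name bcl2fastq 2.17.1.14, Trimmomatic 0.32, STAR 2.5.2a and the GRCm38 genome. The authors deposited whole-number read counts per gene (39017 in each of 3 tables) from uniquely aligned reads, not normalized, and SMART-seq2 keeps no strand. Symbols came from GENCODE vM21 and matched 37607 IDs, and counts without a symbol took at most 0.243% of a library. The 3 tables were fitted separately in edgeR 4.0.16 (R 4.3.3), using TMM factors, filterByExpr (with a minimum count of 10 and a minimum total of 15) and the quasi-likelihood test, all groups of the table in 1 fit, with Benjamini-Hochberg adjustment over the 11430 (day 4), 12549 (days 5, 6 and 9) or 11952 (day 7) genes tested and a threshold of 0.05. Interactions were contrasts of the same fits. Standard errors are the log2 fold change divided by the root of F. CPM is the count per 1000000 of the library total times its TMM factor, and intervals are at 95%. Libraries of the 3 tables held 5811077 to 8396175, 3137352 to 12374735 and 4265876 to 20588555 counts, and intervals and floors for 0 counts cover counting error only. The log2 ratio was compared by exact permutation.

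Alternatives were RLE factors from DESeq2's method, library size only, no filter, a stricter filter (2 CPM in 4 libraries), DESeq2 1.42.0, limma-voom 3.58.1, the current form of edgeR's test, the replicate number as a block, a loess correction for GC content and exon length (span 0.5) with and without the block, only the groups compared, libraries 1 and 3 and libraries 2 and 4 summed (days 5, 6 and 9), and leaving out each library. Same-numbered libraries of the groups compared deviated together by a correlation over 0.1 in every pair in 0 of 13 comparisons over all genes and in 8 of 13 over genes averaging 5 or more on the log2 CPM scale, so blocked values are given where they change a call. The scripts were tested on simulated counts. The members, the lists and the tests were chosen with earlier results of these data known. Members were named in full, list genes as up to 4 called per list and comparison with the lowest p, and similar genes as the 5 with the highest correlation. Some list genes that this rule names are not reported here.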

Additional observations from a re-analysis of the deposited data

Results flagged for a closer look

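In 64 sets of 4 libraries (a member in a group) and 12 of the *Olig1* to *Olig2* ratio, a library was looked for whose gap to its nearest neighbour exceeded Dixon's critical share of the group's range, which chance gives in about 1 of 20 groups. There were 5. In KO at day 7 with DMSO the lowest *Pdgfra* library stood at 2.72 CPM, the highest *Cnp* library at 20.5 CPM and the highest log2 ratio of *Olig1* to *Olig2* at 1.95. The lowest *Cspg4* library of WT at day 6 stood at 1.39 CPM, and the highest *Cnp* library of KO at day 9 at 13.3 CPM.

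The KO to WT difference of *Olig1* was itself different between conditions in 3 tests of an interaction. It was smaller at day 9 than day 5 (log2 change of -0.70), smaller at day 6 than day 5 (-0.75), and the ORY effect was lower in KO than in WT (-1.09).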

How the results depend on the processing

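Of 1873 alternative values, 1734 kept their direction and side of the threshold, 48 lost a call, 25 gained one and 66 changed sign, none of the last called in the fits reported. The cause of these changes was not tested. The number of members called changed as follows. With the GC and length correction, that correction with the replicate block, or summed libraries, day 5 had 1 instead of 2. The day 9 to day 5 interaction had 2 instead of 1 with limma-voom, the current edgeR form or the replicate block, and 0 with the GC correction or summed libraries, as had the day 6 to day 5 interaction. WT day 9 against 5 had 2 with RLE factors, no filter, limma-voom, the current form, the block, or the correction with the block, and 0 with summed libraries. Without a filter ORY in KO had 2, ORY in WT 0 and the genotype by ORY interaction 2. ORY in WT had 0 with only the groups compared and 2 with the block, the correction or both. Leaving out single libraries gave 1 to 2 calls at day 5, in the day 9 to day 5 interaction and for KO with ORY against WT with DMSO, 0 to 2 for WT day 9 against 5 and 0 to 1 for ORY in WT. No other call of a member was changed by the block alone beyond those given in the report.

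Log2 values that changed sign with the GC and length correction (then with the block added) were *Olig2* at day 5 (-0.0096, -0.021), *Cnp* at day 9 (0.011, 0.013), *Olig2* in the day 6 to 5 interaction (0.18, 0.19), *Cspg4* in WT day 6 against 5 (-0.12, -0.096), *Cspg4* (0.013, 0.069) and *Cnp* (0.051, 0.043) in KO day 9 against 5, *Olig2* between genotypes with ORY (0.066, 0.055) and *Cnp* for ORY in KO (-0.11, -0.11). *Pdgfra* at day 9 came to -0.0035 with the current form and at day 7 (DMSO) to -0.049 by library size only, which moved the median of all genes there by -0.105. *Cspg4* in WT day 6 against 5 came to -0.024 with the current form, -0.011 with limma-voom and -0.031 with summed libraries. With single libraries left out, signs changed for *Pdgfra* (-0.39 to 0.24) and *Cspg4* (-0.017 to 0.49) at day 4, *Olig1* at day 6 (-0.090 to 0.20), *Pdgfra* (-0.088 to 0.15) and *Cnp* (-0.13 to 0.056) at day 9, *Pdgfra* in the day 6 interaction (-0.63 to 0.092), *Cspg4* in WT day 6 against 5 (-0.12 to 0.34), *Cnp* in WT day 9 against 5 (-0.054 to 0.18) and *Pdgfra* at day 7 with DMSO (-0.063 to 0.24). Between genotypes with ORY they changed for *Olig2* (-0.14 to 0.076), *Cspg4* (-0.073 to 0.46), *Nkx2-2* (-0.10 to 0.55) and *Cnp* (-0.20 to 0.0036), and also for *Cnp* with ORY in KO (-0.049 to 0.16), *Pdgfra* with ORY in WT (-0.16 to 0.33) and *Cspg4* in KO with ORY against WT with DMSO (-0.51 to 0.029). The log2 ratio ran from -0.14 to 0.10 at day 4, -0.25 to 0.088 at day 6 and -0.14 to 0.34 for ORY in WT. Depth limits *Nkx2-2*, *Cspg4* and *Mbp*, with few reads per library, and *Sox10*, with none.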
